A study of Homo sapiens with 11 samples.

Results

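Metallothioneins are small cysteine-rich proteins that hold zinc and copper, and 8 of their genes (MT1A, MT1E, MT1F, MT1G, MT1H, MT1M, MT1X and MT2A) were followed here in PC-3 tumours, a xenograft of a human prostate carcinoma cell line. These genes were taken by name as the zinc-responsive isoforms, by no rule on measured values, though earlier results of these data were known. All 8 were among the 25590 genes of the deposited tables. The study asked what A2M*, the transformed form of human alpha2-macroglobulin, does to tumours. The PBS group held 5 tumours (PBS-123 to PBS-127, by the number in each label) from mice injected with PBS, and the A2M* group held 6 tumours (A2M-128 to A2M-132 and A2M-112) from mice injected with A2M* at 5.6 mg per 20 g body weight. All hosts were male athymic nude mice of the strain Crl:NU-Foxn1nu, 8 weeks old, which lack T cells, and PC-3 cells were placed under the skin together with matrigel. Injections went into the peritoneum 3 times per week from 7 days after the cells, and the experiment stopped at day 31. All tumours came from 1 cell line, and 1 library was made per tumour.

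In the cell, metallothioneins bind metal ions through their cysteines and so buffer free zinc and copper, take up toxic metals such as cadmium, and react with oxidants. When free zinc rises, the zinc finger factor MTF1 binds metal response elements in the promoters of metallothionein genes and of SLC30A1, the zinc exporter of the plasma membrane, and raises their transcription. Glucocorticoids and oxidative stress also raise metallothionein RNA, and healthy prostate epithelium is known for its high zinc content. Alpha2-macroglobulin itself is a zinc-binding protein of blood plasma.

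PC-3 tumours carried abundant RNA of MT2A, less of MT1X, MT1G and MT1F, traces of MT1M and MT1A, and almost none of MT1E and MT1H. In A2M*-treated tumours no metallothionein passed the test, and the summed level of the 8 genes was 197 ± 34.5 CPM (SD, n = 6) against 203 ± 45.2 CPM (SD, n = 5) in PBS tumours. CPM are counts per 1e+06 counts of a library whose size was scaled by TMM, a normalization that assumes most genes are unaltered. What did vary was the level from tumour to tumour, and MT1X and MT1G each rose and fell with MT2A within both groups.

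The coding sequences of the 8 genes are much alike. Over 28 pairs of members the coding bases were between 88.7% and 94.6% identical, with a median of 91.9%. The coding sequences of MT2A, the member with most RNA, of MT1X, the second, and of MT1E, one of the silent members, are given to show how little sets them apart. They were read 5′ to 3′ from GENCODE transcripts mapped to GRCh37, and capitals mark the bases of MT1X and MT1E that are unlike MT2A, 14 of 186 in each.
MT2A: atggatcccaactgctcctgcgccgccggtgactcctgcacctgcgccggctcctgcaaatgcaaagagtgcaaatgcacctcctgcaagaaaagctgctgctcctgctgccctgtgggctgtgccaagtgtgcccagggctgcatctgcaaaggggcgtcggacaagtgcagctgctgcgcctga
MT1X: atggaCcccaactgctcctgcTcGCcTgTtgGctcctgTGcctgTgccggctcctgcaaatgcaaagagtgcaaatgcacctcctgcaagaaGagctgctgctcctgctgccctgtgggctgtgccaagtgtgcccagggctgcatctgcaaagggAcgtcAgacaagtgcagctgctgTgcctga
MT1E: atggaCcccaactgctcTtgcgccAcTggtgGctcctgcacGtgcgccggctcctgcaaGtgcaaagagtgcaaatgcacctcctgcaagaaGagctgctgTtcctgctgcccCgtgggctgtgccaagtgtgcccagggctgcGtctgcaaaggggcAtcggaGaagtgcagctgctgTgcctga

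Such likeness bears on the counts, since a short read from a shared stretch cannot be placed. Of all windows of 50 bases along the main transcript, the share that occurred unaltered in another annotated gene was 5.34% for MT1E, 5.76% for MT1A, 6.12% for MT1F, 11.1% for MT2A, 14.6% for MT1M, 19.9% for MT1G and 20.4% for MT1H. In MT1X it was 51.0%, or 18.0% without ENSG00000259827, a gene annotated on the same strand over exons of MT1X. The read length and the treatment of reads with several places in the genome are not given in the sources used here, so the counts of all 8 members carry this uncertainty. Human transcripts alone were searched. Stretches shared with mouse genes, and their part in the separation of human from mouse reads, were not tested.

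All 8 genes stand in 1 cluster on chromosome 16, within 75.6 kb of GRCh37 (positions 56642496 to 56718108), and each has 3 exons in its main transcript. MT2A comes first, at positions 56642496 to 56643409. MT1X comes last, at positions 56716382 to 56718108. Between them lie MT1E, MT1M, MT1A, MT1F, MT1G and MT1H, of which MT1G alone is on the minus strand.

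For 3 members, MT2A, MT1X and MT1H, the promoter was at hand, as the 250 bases before the transcription start in RefSeq on GRCh38.p14. MT1A, MT1E, MT1F, MT1G and MT1M had no entry. The promoters are shown because MT2A and MT1X had RNA that varied together, whereas MT1H was silent. Capitals mark the cores of the metal response element, searched as TGCACNC and TGCGCNC on both strands. All 3 regions are on the plus strand, chr16:56608334-56608583 for MT2A, chr16:56682220-56682469 for MT1X and chr16:56669564-56669813 for MT1H.
MT2A promoter: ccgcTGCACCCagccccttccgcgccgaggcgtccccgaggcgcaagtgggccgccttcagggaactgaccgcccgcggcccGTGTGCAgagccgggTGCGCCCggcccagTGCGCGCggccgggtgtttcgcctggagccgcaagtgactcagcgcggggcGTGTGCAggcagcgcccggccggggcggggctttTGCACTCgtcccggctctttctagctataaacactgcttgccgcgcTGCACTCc
MT1X promoter: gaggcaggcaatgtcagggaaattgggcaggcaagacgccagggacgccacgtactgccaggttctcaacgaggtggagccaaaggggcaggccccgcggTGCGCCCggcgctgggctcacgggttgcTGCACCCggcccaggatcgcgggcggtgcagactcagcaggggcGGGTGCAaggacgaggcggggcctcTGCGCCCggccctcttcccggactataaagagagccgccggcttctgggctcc
MT1H promoter: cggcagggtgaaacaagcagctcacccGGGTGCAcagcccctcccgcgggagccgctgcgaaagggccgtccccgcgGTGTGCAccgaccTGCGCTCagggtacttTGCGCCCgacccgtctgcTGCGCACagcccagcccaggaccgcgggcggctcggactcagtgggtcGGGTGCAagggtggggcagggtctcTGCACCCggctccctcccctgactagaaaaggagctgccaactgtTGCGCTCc

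MT2A held 7 cores, MT1X held 4 and MT1H held 8, none of them overlapping another. Of 35116 RefSeq promoters of the same length, 24.8% held at least 1 core, 0.370% at least 4, 0.0313% at least 7 and 0.0171% at least 8. SLC30A1 held 1 core and MTF1 held 0. Of the 3 members, the silent MT1H had the most. MT1B and MT4, other genes of the family without reads, held 3 cores each, fewer than MT2A and MT1X. A core is a match of letters and not a measured binding site.

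The human libraries held between 16958533 and 35874381 counts per tumour. A count of 3, taken as a guide to the floor of each library, came to 0.0836 to 0.177 RPM, the reads per 1e+06 reads counted. The shallowest library was tumour A2M-129. Epithelial markers were high in the tumours (KRT8 at 245 and EPCAM at 166 RPKM, RPM per kilobase of exon), whereas the prostate secretory gene KLK3 was at 0 reads. Of 5 leukocyte markers only CD68, at 13.1, had a mean over 1 RPKM, of 5 endothelial markers only PECAM1, at 3.93, and of 6 fibroblast markers COL1A1, at 89.0, and COL3A1, at 5.38. DCN, LUM, PDGFRA, CDH5 and KDR stayed at or below 0.130 RPKM in each tumour. The summed level of the 5 leukocyte markers, most of it CD68, lay between 11.8 and 16.4 RPKM in PBS and between 12.4 and 16.4 RPKM in A2M* tumours. All these markers were read from reads assigned to human, whereas the host cells in the tumours were of mouse. The values therefore do not measure the content of host leukocytes, vessels or fibroblasts. In bulk tumours, fewer cells of a type and less RNA per cell cannot be told apart.

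Compared per exon length, MT2A was by far the highest of the metallothioneins. Its mean over the 11 tumours was 429 RPKM ± 72.7 (SD), rank 108 of all listed genes, and it supplied between 88.8% and 91.5% of the summed RPKM of the 8 genes in each tumour. MT1X followed at 27.8 RPKM ± 6.84, and the mean of MT2A was 15.4-fold that of MT1X, with no overlap between their ranges. MT1X in turn was above MT1G in 11 of 11 tumours, with a ratio of the means of 3.03.

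MT1G at 9.19 RPKM ± 1.75 and MT1F at 8.79 RPKM ± 1.81 could not be put in order, since MT1G was the higher of the pair in 7 of 11 tumours. Both stood about 10-fold above MT1M, the ratio of MT1F to MT1M being 10.1. MT1M at 0.871 RPKM ± 0.372 and MT1A at 0.719 RPKM ± 0.422 overlapped as well, with MT1M higher in 6 of 11 tumours.

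MT1E and MT1H gave 1 read each in all 11 tumours together, MT1E in tumour A2M-131 and MT1H in tumour A2M-128. Per exon length, MT1X was 4476-fold above MT1E (95% exact interval 803 to 176855) and 3512-fold above MT1H (630 to 138758), intervals that cover counting error only. MT1E lies between MT2A and MT1M, and MT1H lies between MT1G and MT1X, so that silent genes stood next to transcribed ones. Among 9 other genes and pseudogenes of the family, 8 were listed, of which MT1JP had 23 reads in all, MT1DP 13 and MT3, the brain isoform, 3, whereas MT1B, MT1L, MT1IP, MT1HL1 and MT4 had 0.

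**Figure D1:**
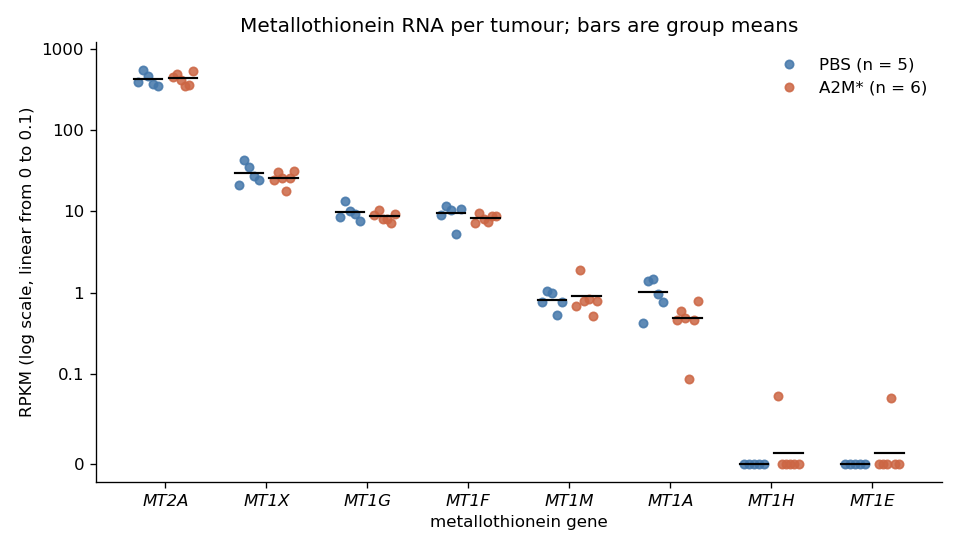
RPKM of each metallothionein (vertical axis, logarithmic above 0.1 and linear below) in 5 PBS tumours (blue) and 6 A2M* tumours (orange), 1 point per tumour in the order PBS-123 to PBS-127 and A2M-128 to A2M-132 then A2M-112, with black bars at the group means. MT2A stands about 15-fold above MT1X, MT1G and MT1F overlap, MT1M and MT1A overlap near 1 RPKM, and MT1H and MT1E are at 0 in 10 of 11 tumours.

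**Figure D2:**
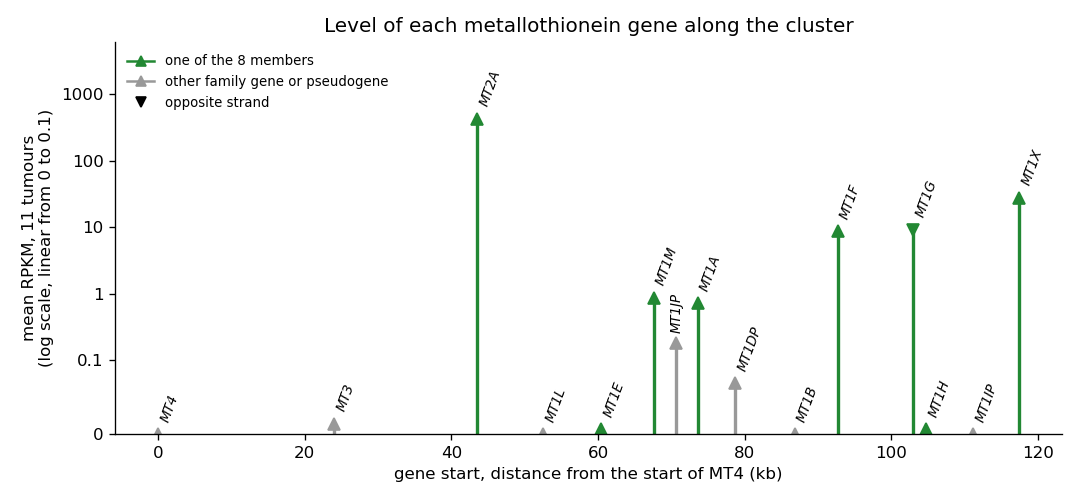
Mean RPKM over 11 tumours (vertical axis, logarithmic above 0.1 and linear below) of each listed metallothionein gene of the cluster, placed by the distance of its start from the start of MT4 in kb. The 8 members are green, other family genes and pseudogenes grey, and triangles pointing down mark the minus strand. Genes with RNA (MT2A, MT1F, MT1G, MT1X) alternate with genes at or near 0 (MT1E, MT1B, MT1H).

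To see whether treatment altered the metallothioneins, groups were compared with the quasi-likelihood test of edgeR over the 16630 genes that passed a filter on low counts. Of the 8 members, 5 passed the filter (MT2A, MT1X, MT1G, MT1F and MT1M) and 3 did not (MT1A, MT1E and MT1H). At a Benjamini-Hochberg adjusted p of 0.01, 0 of the 5 were called, beside 0 of all 16630 genes (0%), for which the smallest adjusted p was 0.599. At an unadjusted p of 0.05, 0 of the 5 were called in either direction, against 1178 of all genes (7.08%), or 1233 with DESeq2, and 587 (3.53%) that were lower in A2M* tumours. The log2 fold change was below 0 in 4 of the 5 members, a direction that 50.6% of all genes had, and members that vary together, as these did, are not independent. Its median over the 5 was -0.24, and 90% of all genes lay between -0.26 and 0.29.

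MT2A, the chief metallothionein of most human cells, stood at 162, 242, 202, 155 and 148 CPM in tumours PBS-123 to PBS-127, and in A2M* tumours it ranged from 143 over a median of 177 to 222 CPM. Tumours PBS-124 and PBS-125 and tumours A2M-112 and A2M-129 were the highest of their groups, and the groups overlapped nearly whole. The log2 fold change was -0.02 ± 0.144 (SE, 95% interval -0.33 to 0.29, edgeR, adjusted p = 0.984). MT2A rested on 56954 reads in all. Its sign turned positive, to 0.023, when libraries were scaled by their totals only.

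MT1X stood at 8.39, 17.9, 14.9, 10.9 and 9.92 CPM in PBS tumours and ranged from 7.0 over 10.2 to 12.7 CPM in A2M* tumours. Tumours PBS-124 and PBS-125 were above every A2M* tumour, while the other 3 lay among them. MT1X showed a log2 fold change of -0.26 ± 0.194 (SE, 95% interval -0.68 to 0.16, edgeR, adjusted p = 0.842), which was -0.09 without PBS-124 and -0.17 without A2M-131.

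MT1G, whose coding sequence of 189 bases is 1 codon longer than the 186 of MT2A, reached 3.38, 5.61, 4.19, 3.63 and 3.10 CPM in PBS tumours and from 2.76 over 3.32 to 4.07 CPM in A2M* tumours. Again only tumours PBS-124 and PBS-125 exceeded all A2M* tumours. Its log2 fold change was -0.24 ± 0.159 (SE, 95% interval -0.58 to 0.10, edgeR, adjusted p = 0.816), and -0.08 without PBS-124.

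MT1F had 3.91, 5.41, 4.77, 2.33 and 4.78 CPM in PBS tumours and between 3.14 and 4.19 CPM, with a median of 3.61, in A2M* tumours. Tumours PBS-124, PBS-125 and PBS-127 were above the A2M* range and tumour PBS-126 was below it, so MT1F spread more widely in the control group. The log2 fold change of MT1F was -0.25 ± 0.179 (SE, 95% interval -0.63 to 0.14, edgeR, adjusted p = 0.840). It was -0.14 without PBS-124 and -0.39 without PBS-126, where MT1F had an unadjusted p under 0.05 and an adjusted p of 0.454 from edgeR.

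MT1M, with 117 reads in all, gave 0.332, 0.483, 0.453, 0.229 and 0.341 CPM in PBS tumours and ranged from 0.219 over 0.343 to 0.826 CPM in A2M* tumours. The top value, from tumour A2M-129, rested on 14 reads in the shallowest library. A log2 fold change of 0.02 ± 0.316 (SE, 95% interval -0.66 to 0.70, edgeR, adjusted p = 0.994) left the direction of MT1M undetermined, and without tumour A2M-129 it was -0.23.

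MT1A was too low for the filter, at 5, 18, 20, 10 and 11 reads in tumours PBS-123 to PBS-127 and at 6, 4, 5, 1, 4 and 10 reads in tumours A2M-128 to A2M-132 and A2M-112. In CPM these were 0.166, 0.580, 0.604, 0.382 and 0.313 against a range from 0.0361 over 0.185 to 0.313. Tumours PBS-124, PBS-125 and PBS-126 were above all A2M* tumours, all 6 A2M* tumours were under the PBS median, and tumour PBS-123 lay below all of them except A2M-131. The mean was 0.409 ± 0.185 CPM (SD, n = 5) in PBS and 0.188 ± 0.0908 CPM (SD, n = 6) in A2M* tumours, a ratio of 0.460. Exact permutation of the group labels, two-sided, gave the difference of -0.221 CPM an unadjusted p = 0.0368, with 6 members tested in this way. The other 5 members had exact permutation p-values between 0.225 and 0.883.

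For MT1A in a fit without the filter, edgeR gave a log2 fold change of -1.11 and an adjusted p of 0.746 over all genes, so it did not pass. When each tumour was left out in turn, the exact permutation p ranged from 0.0095 to 0.095 and stayed under 0.05 in 3 of 11 cases, those without PBS-123, PBS-127 or A2M-112.

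**Figure D3:**
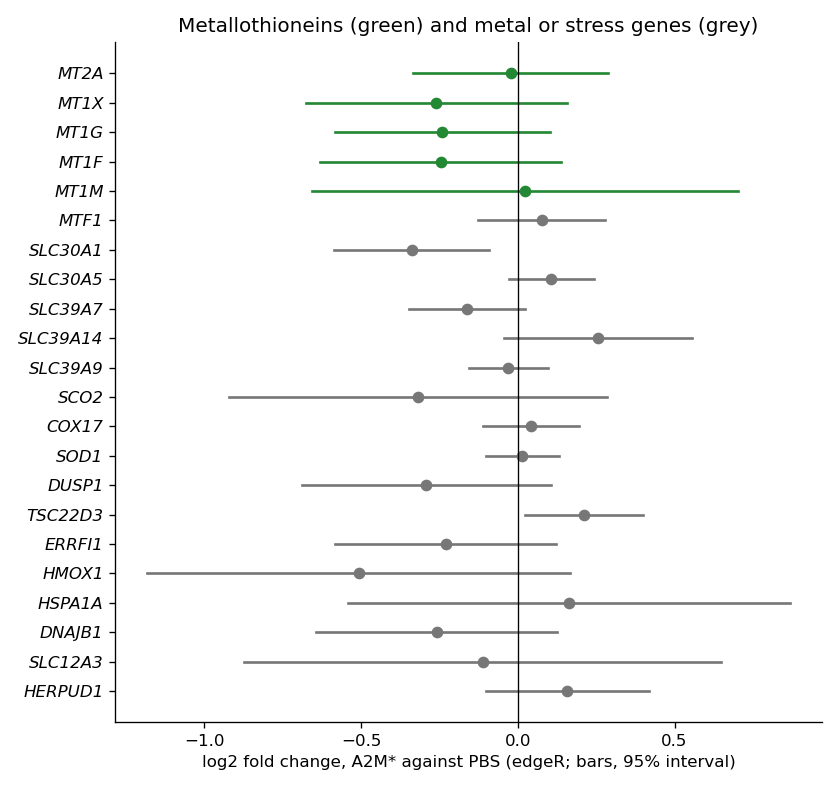
Log2 fold change of A2M* against PBS tumours (horizontal axis) with its 95% interval from edgeR for the 5 tested metallothioneins (green) and for metal, glucocorticoid, stress and neighbouring genes (grey). The intervals of all 5 metallothioneins include 0, and those of SLC30A1, from -0.59 to -0.09, and TSC22D3, from 0.02 to 0.40, lie to one side of it without passing the adjusted threshold.

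Taken over the family, the 8 genes summed to 178, 272, 227, 173 and 167 CPM in PBS tumours and from 157 over 194 to 243 CPM in A2M* tumours. On the log2 scale the group means of the summed level were 7.64 and 7.60, a difference of -0.04. The ranges lay almost on top of each other, and the sign of this difference turned with the scaling, being 0.0067 with library totals only. As most of the sum was MT2A, it was also computed from the other 7 genes, where the mean was 21.4 ± 5.84 CPM (SD, n = 5) in PBS and 18.0 ± 2.95 CPM (SD, n = 6) in A2M* tumours, a log2 difference of -0.23.

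The composition of the sum differed slightly. MT2A made up 90.7%, 88.8%, 88.8%, 89.6% and 88.8% of the summed RPKM in PBS tumours and from 89.5% over 90.8% to 91.5% in A2M* tumours. Tumours PBS-124, PBS-125 and PBS-127 were below all A2M* tumours, and tumours A2M-128, A2M-131 and A2M-112 were above all PBS tumours. The group means were 89.3% ± 0.871 (SD, n = 5) and 90.7% ± 0.734 (SD, n = 6), a difference of 1.33 percentage points that stayed between 1.17 and 1.69 when any 1 tumour was left out. This share is given as a description, without a test.

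**Figure D4:**
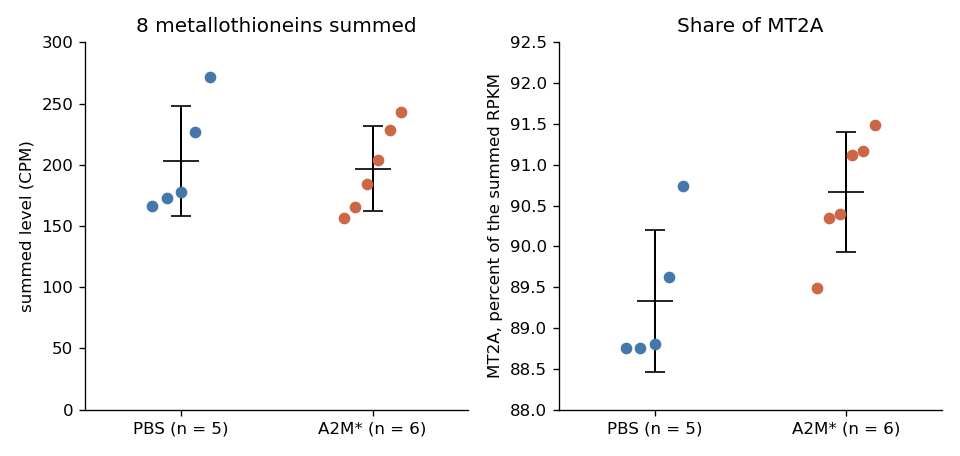
Left, summed CPM of the 8 metallothioneins per tumour in 5 PBS (blue) and 6 A2M* tumours (orange); right, the percent of their summed RPKM that was MT2A, on an axis that starts at 88%. Horizontal marks and bars are group means and SD. The sums run from 157 to 272 CPM over both groups, and the share of MT2A runs from 88.8% to 91.5%.

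Variation between tumours of the same group was larger for the 5 tested metallothioneins than for most tested genes, which were not matched for abundance. In abundance the 5 stood at percentiles 1.3 (MT1M), 24.1 (MT1G), 24.8 (MT1F), 38.0 (MT1X) and 93.6 (MT2A) of tested genes. The biological coefficient of variation, the relative spread between tumours beyond counting noise, was 17.02% for MT2A, 17.1% for MT1G, 19.4% for MT1M, 19.5% for MT1F and 22.4% for MT1X, while its median over all tested genes was 12.4%. MT1X, the most variable of the 5, exceeded 89.7% of tested genes in this respect, and MT2A, the least variable, 76.7%.

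Members of the cluster varied together. After removal of the group means from log2 CPM, all 10 pairs of the 5 tested members had a positive Pearson r over the 11 tumours, between 0.40 and 0.92 with a median of 0.59. By exact permutation of tumours inside each group, 5 of the 10 pairs had a Benjamini-Hochberg adjusted p under 0.05, and 3 of 10 by Spearman's rho.

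MT1G and MT2A were the closest pair, with r = 0.92 (permutation p = 0.00045, adjusted p = 0.0045) and rho = 0.90 (permutation p = 0.00095, adjusted p = 0.0059). Within the groups r was 0.97 over the PBS tumours and 0.88 over the A2M* tumours. Leaving out the 2 tumours farthest from the median of MT1G, PBS-124 and A2M-129, gave r = 0.88.

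MT1X and MT2A followed with r = 0.87 (permutation p = 0.0012, adjusted p = 0.0061) and rho = 0.88 (permutation p = 0.0012, adjusted p = 0.0059), with 0.91 in PBS and 0.83 in A2M* tumours, and with 0.73 without tumours PBS-124 and A2M-131. MT1G and MT1X had r = 0.80 (permutation p = 0.0081, adjusted p = 0.027) and rho = 0.78 (permutation p = 0.013, adjusted p = 0.043), with 0.92 in PBS and 0.57 in A2M* tumours, and with 0.62 when tumours PBS-124 and A2M-129 were left out. Tumour PBS-124 was the highest of all tumours in MT2A, MT1X, MT1G and MT1F, and without it r of MT1G and MT1X was 0.67. The adjusted p of this pair exceeded 0.05 when PBS-124, PBS-125, PBS-126 or A2M-129 was left out, whereas both pairs with MT2A passed in each of the 11 cases.

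MT1M was tied to MT1F with r = 0.58 (permutation p = 0.015, adjusted p = 0.030) and rho = 0.62 (permutation p = 0.039, adjusted p = 0.096), and to MT1G with r = 0.66 (permutation p = 0.015, adjusted p = 0.030) and rho = 0.55 (permutation p = 0.096, adjusted p = 0.16). Without the 2 farthest tumours r was 0.47 and 0.48, neither pair passed by rank, and each lost its call in 6 of 11 cases when 1 tumour was left out. MT1F and MT1X passed only without PBS-126, with r = 0.83, and MT1M and MT2A only without A2M-112, with r = 0.69. MT1F and MT2A had r = 0.52 (permutation p = 0.13, adjusted p = 0.17) and rho = 0.48 (permutation p = 0.13, adjusted p = 0.19), which did not pass. The part of shared reads in these relations was not tested.

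**Figure D5:**
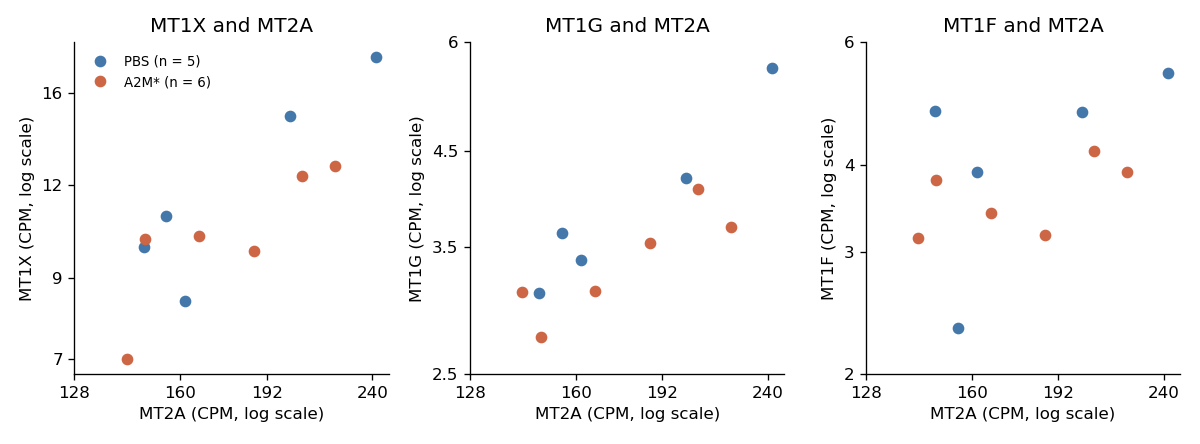
CPM of MT1X, MT1G and MT1F (vertical axes) against CPM of MT2A (horizontal axes), all on log scales, with 1 point per tumour for 5 PBS (blue) and 6 A2M* tumours (orange). MT1X and MT1G rise with MT2A in both groups (r = 0.87 and 0.92 with group means removed), whereas MT1F scatters more widely (r = 0.52).

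Among the genes whose level over the 11 tumours was most like the summed metallothioneins, group means removed, were SLC31A1, the copper importer of the plasma membrane, with r = 0.93, TMEM40 with 0.91, PTGFRN with 0.91 and SLC20A2, a phosphate transporter, with 0.91. These 4 were among the top 5 of the tested genes outside the metallothionein family. The median r of all 16630 tested genes was close to 0, and as the 4 were chosen for this likeness, no test is given. SLC31A1 stood at 55.6 ± 3.93 CPM (SD, n = 5) in PBS and 52.2 ± 3.62 CPM (SD, n = 6) in A2M* tumours.

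For MTF1, the zinc sensor, and SLC30A1, its other classical target, no relation to the metallothioneins passed across tumours. The summed level had r = -0.05 with SLC30A1 (within-group permutation p = 0.89, adjusted p = 0.89; rho = 0.027, permutation p = 0.95, adjusted p = 0.95) and r = -0.33 with MTF1 (permutation p = 0.36, adjusted p = 0.72; rho = -0.35, permutation p = 0.33, adjusted p = 0.66). With SLC30A1 r became 0.47 without tumours A2M-112 and PBS-124, and with MTF1 it became 0.13. HMOX1, the heme oxygenase induced by metals and oxidants, had r = 0.56 (permutation p = 0.096, adjusted p = 0.38) and rho = 0.47 (permutation p = 0.16, adjusted p = 0.64). Its r was 0.30 without the same tumours, 0.092 without PBS-124 alone and 0.69 without A2M-112 alone. With the log2 total count of the library, r was 0.11 (permutation p = 0.76, adjusted p = 0.89) and rho was 0.11 (permutation p = 0.77, adjusted p = 0.95), and without the same tumours r was -0.16. None of these 4 relations passed.

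Of the genes that handle zinc, 0 of 20 tested passed the adjusted threshold, where 0% of all genes did. At an unadjusted p of 0.05, 1 of the 20 was called, where 7.08% of all genes were. MTF1 stood at 23.7 ± 2.89 CPM (SD, n = 5) in PBS and 25.0 ± 2.31 CPM (SD, n = 6) in A2M* tumours, with a log2 fold change of 0.08 ± 0.095 (SE, edgeR, adjusted p = 0.914). Among 10 zinc exporters of the SLC30 family 7 were tested, with a median log2 fold change of -0.02.

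SLC30A1 had the lowest value of its list, a log2 fold change of -0.34 ± 0.116 (SE, 95% interval -0.59 to -0.09, edgeR, adjusted p = 0.640). It ranged from 15.1 to 23.4 CPM in PBS and from 13.4 to 17.2 CPM in A2M* tumours, and 2 of 6 A2M* tumours were below all PBS tumours. SLC30A5, which loads zinc into the secretory pathway, had the highest value, 0.11 ± 0.063 (SE, edgeR, adjusted p = 0.781).

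Among 14 zinc importers of the SLC39 family 12 were tested, with a median log2 fold change of -0.04. Of the 12, 8 were below 0, where 50.6% of all tested genes were. SLC39A7, which releases zinc from the endoplasmic reticulum, had the lowest, -0.16 ± 0.087 (SE, edgeR, adjusted p = 0.760). SLC39A14, an importer of zinc, iron and manganese, had the highest, 0.26 ± 0.139 (SE, edgeR, adjusted p = 0.764), with 1 tumour of each group far from the rest. The most abundant, SLC39A9, had -0.03 ± 0.058 (SE, edgeR, adjusted p = 0.949).

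All 11 copper genes were tested, and 9 of them were below 0, where 50.6% of all tested genes were. Whether these genes vary independently was not tested. At an unadjusted p of 0.05, where 7.08% of all tested genes were called, 0 of the 11 copper genes were. Their median log2 fold change was -0.06, from -0.32 for SCO2, a copper chaperone of cytochrome oxidase, to 0.04 for COX17, another such chaperone. SOD1, the copper and zinc superoxide dismutase and the most abundant of them, had 0.01 ± 0.054 (SE, edgeR, adjusted p = 0.974).

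Of 9 glucocorticoid-responsive genes 8 were tested, with a median log2 fold change of 0.06. TSC22D3, the leucine zipper protein induced by glucocorticoids, had 0.21 ± 0.088 (SE, edgeR, adjusted p = 0.663), the second of the pathway genes with an unadjusted p under 0.05. DUSP1, a MAP kinase phosphatase, had -0.29 ± 0.185 and ERRFI1, a feedback inhibitor of the EGF receptor, -0.23 ± 0.164 (SE, edgeR, adjusted p = 0.803 and 0.837).

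Of 8 genes of metal and oxidative stress, HMOX1 had the lowest log2 fold change, -0.51 ± 0.314 (SE, edgeR, adjusted p = 0.797). This rested on tumour PBS-124 at 77.0 CPM, since the other PBS tumours lay between 21.5 and 27.3 and the A2M* tumours between 17.2 and 31.4 CPM, and without tumour PBS-124 the value was 0.03. HSPA1A, an inducible HSP70 with a near-identical copy in HSPA1B, had 0.16 ± 0.328 and DNAJB1, its co-chaperone, -0.26 ± 0.179 (SE, edgeR, adjusted p = 0.951 and 0.828).

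Genes beside the cluster were read as a check of the region. Of 9 neighbours 7 were tested and 3 were below 0, where 50.6% of all tested genes were. The median log2 fold change of the neighbours was 0.06, from -0.11 for SLC12A3 to 0.16 for HERPUD1. In all, 0 of the 54 tested genes of the zinc, copper, glucocorticoid, stress and neighbour lists passed the adjusted threshold, where 0% of all genes did, and 2 of 54 had an unadjusted p under 0.05, where 7.08% of all genes did.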

How the data were processed

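The authors extracted total RNA, made single-read TruSeq libraries, used xenome to separate human from mouse reads, mapped the human ones to hg19 with TopHat2 and counted RefSeq genes with featureCounts. bcl2fastq 1.8.4 is named in the submitters' processing notes. The deposited counts are raw whole numbers. The deposited RPM divide each count by the tumour's total, and the deposited RPKM divide RPM by exon length, both made by the authors. Strand setting and read length are not given in the sources used here. Mouse reads were not analysed here.

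Members and gene lists were chosen with earlier results of these data known. For this reason no p-value is given for the sum over the members or the share of MT2A. Counts were filtered with filterByExpr, scaled by TMM and entered into a quasi-likelihood fit of edgeR 4.0.16 (R 4.3.3) without covariates, with Benjamini-Hochberg adjustment over 16630 genes, at 0.01. The edgeR fit was tested on simulated data, and the other steps were not. The SE is the log2 fold change over the square root of F. Relations used log2 CPM (prior count 2) and 86400 within-group permutations. From each list, the genes with the lowest and highest log2 fold change and the most abundant gene were named, with MTF1, SLC30A1 and HMOX1 always and the 5 genes outside the family most like the summed level, 1 of which is not reported here. Other genes were named after their values were seen. Labels give tumours, not further replication, and no pair of libraries was alike within sampling noise (chi-square over its degrees of freedom from 8.90 to 62.5). Alternatives used DESeq2 1.42.0, limma 3.58.1, other scalings and filters, log2(RPKM + 0.1), and fits that omitted 1 tumour. The exact permutation of single members and a sum over all listed metallothioneins were added after the data were seen.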

Additional observations from a re-analysis of the deposited data

Results flagged for a closer look

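In 64 groups of tumours, the gap of the extreme tumour to the rest was compared with the range. Of these, 5 stood apart by the cutoffs of Dixon's test. Chance alone would give about 3.2 if values in a group were normally distributed, which was not tested. A group was 1 gene, or 1 summary value such as library total, summed level or share, in 1 treatment. Some of these values overlap, so the groups are not independent. MT1M in tumour A2M-129 was at 0.826 CPM, with the other A2M* tumours between 0.219 and 0.361. Tumour PBS-124 stood apart in 2 genes. HMOX1 was at 77.0 CPM there, with the other PBS tumours between 21.5 and 27.3. SLC39A14 was at 182.6 CPM, with the others between 132.1 and 141.9. SLC39A14 was also low in tumour A2M-132, at 109.8 CPM, with the other A2M* tumours between 172 and 205. HERPUD1 in tumour A2M-128 was at 146 CPM, with the other A2M* tumours between 85.5 and 104.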

How the results depend on the processing

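No metallothionein and no pathway gene passed an adjusted p of 0.01 under any alternative run, and among all genes DESeq2 called 1 (REP15, named after its value was seen). Without 1 tumour, 0 genes were called and between 682 and 1684 had an unadjusted p under 0.05. Of 487 log2 fold changes under alternatives, 20 in 8 genes changed sign. The 487 include the main fit read at an adjusted p of 0.05, whose fold changes equal the main ones and cannot change sign. With library totals only, MT2A became 0.023, SLC39A9 0.015 and the summed level 0.0067, and from summed RPKM the latter was 0.0062. MT1M was -0.011 with limma-voom. Omitting tumours one by one gave -0.092 to 0.10 for MT2A, -0.37 to -0.091 for MT1X, -0.32 to -0.085 for MT1G, -0.39 to -0.14 for MT1F, -0.23 to 0.12 for MT1M, -0.63 to 0.033 for HMOX1, -0.082 to 0.52 for HSPA1A, -0.12 to 0.0030 for PTGFRN, -0.26 to 0.061 for SLC12A3, -0.0024 to 0.033 for SOD1, and -0.10 to 0.075 for the summed level, which turned positive without PBS-124, PBS-125, A2M-131 or A2M-132. The share of MT2A differed by 1.17 to 1.69 points. The number of related pairs was 3 by rank, 3 with group means kept and 2 to 6 with 1 tumour left out. The relation of the summed level to SLC30A1 was 0.027 by rank, 0.0082 with group means kept and -0.23 to 0.51 without 1 tumour, and without 1 tumour that to the library total was -0.081 to 0.51, to HMOX1 0.092 to 0.69 and to MTF1 -0.60 to -0.13. The cause was not tested. MT1M could not be fitted with at least 10 counts in every tumour or in 4 of the fits without 1 tumour. No paired analysis was possible because the groups share no tumour numbers. At 1 read each, MT1E and MT1H allow no comparison of groups, and MT1A and MT1M rest on 94 and 117 reads.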
